A study of Mus musculus with 6 samples.

Results

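Nodal, Lefty1, Lefty2, Gdf3, Tdgf1, Acvr2b and Skil encode parts of the Nodal signalling pathway, from its secreted ligands and inhibitors to a receptor and a nuclear repressor. They were chosen by name, with earlier results of these data known, as a pathway that includes known microRNA targets. All 7 were found among the 55487 genes of the count table, and all 7 passed the filter on low counts that left 15748 genes for testing. The D6AdP line, from mouse embryonic stem (ES) cells, was used throughout. Every group, the 0 h group included, carried the genotype DDX6-AID-mCherry/DDX6-AID-mCherry with DCP1a-EGFP/+ and an OsTIR1-FLAG transgene, so that both Ddx6 copies were tagged with an auxin-inducible degron. The groups were cells at 0 h, before the auxin analog 5-Ph-IAA was added, and cells kept with 500 nM of it for 3 h or for 6 h, with 2 libraries of polyA RNA at each time. All cells grew with PD0325901, an inhibitor of MEK, CHIR99021, an inhibitor of GSK3, and leukemia inhibiting factor, on mitomycin-treated fibroblasts whose marker genes were read in every library. D6AdP is a single line, wells kept for 3 or 6 h without the analog were not analysed here, and time in culture and time with the analog therefore cannot be told apart.

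Nodal is a ligand of the TGF-beta family that acts through type I and type II activin receptors and a co-receptor, after which SMAD proteins enter the nucleus and switch on target genes. Among these targets are Nodal itself and the Lefty genes, whose secreted products block Nodal, so the pathway holds both a positive and a negative loop. DDX6 is an RNA helicase of P-bodies that acts in decapping, in translational repression and downstream of microRNAs. Lefty mRNAs are known targets of related microRNAs in several vertebrates, namely miR-430 in zebrafish, miR-427 in Xenopus and miR-302 in human ES cells, and mouse ES cells express the miR-290 and miR-302 clusters.

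The microRNAs are shown because they share 1 seed, and a match to it was found in both Lefty genes and in none of the other 5. The mature mouse sequences come from RefSeq (GRCm38.p6), in RNA letters from 5′ to 3′, and the capitals mark the seed at bases 2 to 8. The set used lacks at least 1 mature sequence of the miR-302 cluster, so the list may not be complete.
miR-302b-3p: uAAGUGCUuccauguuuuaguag
miR-302d-3p: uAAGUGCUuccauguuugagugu
miR-291a-3p: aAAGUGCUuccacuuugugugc
miR-294-3p: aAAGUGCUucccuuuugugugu
miR-295-3p: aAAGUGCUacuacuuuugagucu
The 7-base match to this seed in DNA letters is AGCACTT, searched on the sense strand of annotated 3′ UTRs. Lefty1 and Lefty2 each held 1 match. The matches are given with their surroundings from GENCODE M21 transcripts (GRCm38, plus strand of chromosome 1), with the match in capitals.
Lefty1: actgtatgcgaAGCACTTacatgtataga
Lefty2: cacccagtttaAGCACTTacatgggtaaa
The Lefty1 match lies at chr1:180938213-180938219, 238 bases after the stop codon, and the Lefty2 match at chr1:180897917-180897923, 104 bases after the stop codon. An A follows the match in both genes, and the run of 13 bases aAGCACTTacatg is identical in both. Nodal, Gdf3, Tdgf1, Acvr2b and Skil held no match in any of their annotated 3′ UTRs. The match occurs in 3240 of the 21173 genes with an annotated 3′ UTR, or 15.3%, and in 18.3% of the 13651 such genes that were tested, so it is a common sequence. A match is a description of the sequence and not a measured microRNA site.

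The 2 Lefty genes lie close together on chromosome 1 of GRCm38, with Lefty2 at chr1:180893108-180899103 and Lefty1 at chr1:180935022-180938400, and their coding sequences are identical at 1017 of 1107 bases (91.9%). Their 3′ UTRs differ in length, with 425 bases in Lefty1 and 1290 in Lefty2, against a median of 1357 bases over the tested genes. The Lefty1 3′ UTR is the shortest of the 7 genes and is the only one without the AU-rich pentamer AUUUA, while Skil has the longest, with 3964 bases and 14 pentamers. The remaining genes are Nodal at chr10:61417972-61425338, Gdf3 at chr6:122605403-122610087, Tdgf1 at chr9:110939603-110946158, Acvr2b at chr9:119402118-119434995 and Skil at chr3:31095058-31122577. No exon of the 7 genes overlaps an exon of another annotated gene. Of all 50-base stretches in Lefty1 transcripts, 17.9% also occur in another gene, Lefty2. The share is 12% for Lefty2, 8.86% for Tdgf1, whose copy is the pseudogene Tdgf1-ps1, and 1.77% for Gdf3. How the authors counted reads with several matches is not given in the sources used here, so counts of these 4 genes are uncertain to that extent.

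Library totals ran from 16357142 to 21846959 counts, so 3 counts stood for 0.139 to 0.181 CPM (counts scaled to library size), far below the level of any of the 7 genes. The 2 smallest totals, 16357142 and 18323611 counts, were both at 6 h. Replicates correlated at r = 0.996, 0.996 and 0.994 across genes for log2 CPM at 0, 3 and 6 h. The chi-square between their raw counts was 4.18, 1.97 and 6.46 per degree of freedom, so replicates differed least at 3 h and most at 6 h. The fit used a spread shared by all times. Ddx6 mRNA had 267 and 249.9 CPM at 0 h, 269 and 271 CPM at 3 h, and 258 and 247 CPM at 6 h, but degron and analog work on protein level, and the RNA values give no check of depletion. The summed level of 30 fibroblast markers, which stand for the feeder cells, was 28182 to 30909.8 CPM at 0 h, 26726 to 27225 CPM at 3 h and 27238 to 30360.2 CPM at 6 h. It was lowest at 3 h, where the estimates of all 30 markers were below 0 and none was called, while the 6 h and 0 h ranges overlapped. At 6 h against 0 h, 2 of the 30 rose and 1 fell, and at 6 h against 3 h, 9 rose. In such bulk libraries, fewer cells of a type and less RNA per cell cannot be told apart. The summed level of 10 ES cell markers was 3665 and 3847 CPM at 0 h, 3884 and 3854 CPM at 3 h, and 3446 and 3565 CPM at 6 h, so the markers were abundant at every time. Of the 10, 2 rose and 5 fell at 6 h against 0 h, where 22.3% of all tested genes were called, and none rose and 5 fell at 6 h against 3 h, where 21.7% were called. The median log2 change of the 10 was -0.15 at 6 h against 0 h and -0.2 at 6 h against 3 h. The summed level of 10 endoderm and mesendoderm markers was 36.1 to 43.5 CPM over all libraries, and Afp among them was at or near 0. The part of feeder and other cells in the results below was not tested, beyond the values with the feeder marker level as a covariate. That level was the mean log2 CPM of the 30 fibroblast markers. It was 8.51 and 8.41 at 0 h, 8.31 in both 3 h libraries, and 8.52 and 8.37 at 6 h. Its slope therefore rests on the gaps within 0 h and 6 h, and covariate values for comparisons with 3 h are extrapolated. P-values with the covariate come from a fit with a further coefficient on 6 libraries and do not stand for a feeder correction.

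Expressed per length of transcript, the 7 genes covered a wide range. Tdgf1 was the most abundant, with a mean of 965 TPM (scaled to length and library) over the 6 libraries, and Lefty2 followed with 273 TPM. Gdf3 had 119 TPM and Nodal 118 TPM, and their ranges over the libraries, 114 to 124 and 108 to 127 TPM, overlapped, so their order was not resolved. Lefty1 had 84 TPM, with a range of 59 to 103 TPM that did not reach the lowest Nodal library. Which ranges overlapped depended on the length used. With the longest annotated transcript as length, the Lefty1 range (48.8 to 85.3 TPM) overlapped that of Nodal (81.9 to 96.8 TPM). The Gdf3 range (99.8 to 107 TPM) then lay above that of Nodal. Skil had 34.4 TPM and Acvr2b 23.8 TPM, with ranges of 33.4 to 35.7 and 22.6 to 24.8 TPM.

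**Figure D1:**
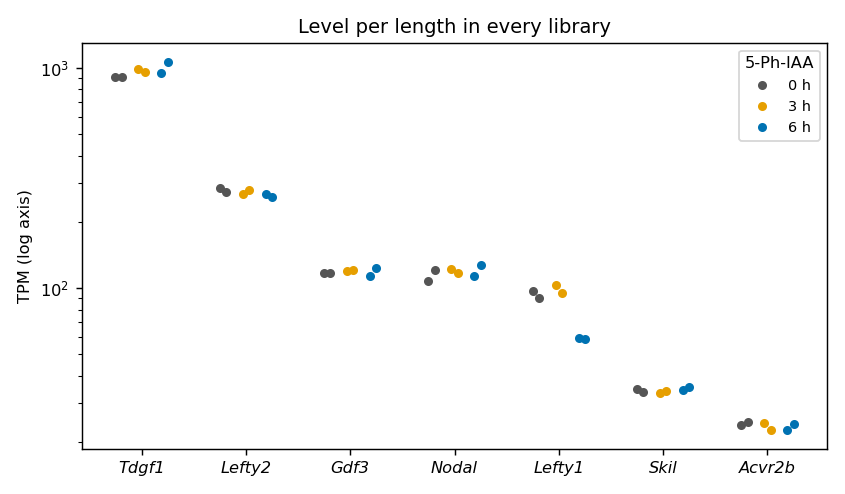
Level of each gene per length (TPM, log axis) in each of the 6 libraries, with colours for 0, 3 and 6 h of 5-Ph-IAA. Tdgf1 lies highest, between 911 and 1068 TPM, Acvr2b lowest, between 22.6 and 24.8 TPM, and the 6 h libraries of Lefty1 lie below its other libraries.

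Across the 7 genes, Lefty1 fell at 6 h, Tdgf1 rose slightly, and the other 5 were not called in any of the 3 comparisons. At 3 h against 0 h none of the 7 was called at an adjusted p under 0.05 in edgeR's quasi-likelihood test, where 0.14% of all tested genes were called. At an unadjusted p under 0.05 the test marked 1 of the 7, Tdgf1, and 1679 of all tested genes, and neither DESeq2 nor limma voom called any of the 7. At 6 h against 0 h, 2 of the 7 (28.6%) were called, where 22.3% of all tested genes were called, so the share is close to the background. At 6 h against 3 h, 1 of the 7 (14.3%) was called, against 21.7% of all tested genes. The median log2 fold change of the 7 was 0.069 at 3 h against 0 h, 0.019 at 6 h against 0 h and -0.048 at 6 h against 3 h, beside -0.001, 0.002 and 0.005 over all tested genes. The comparisons share libraries (both times are set against the same 0 h libraries), so they are not independent of each other.

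**Figure D2:**
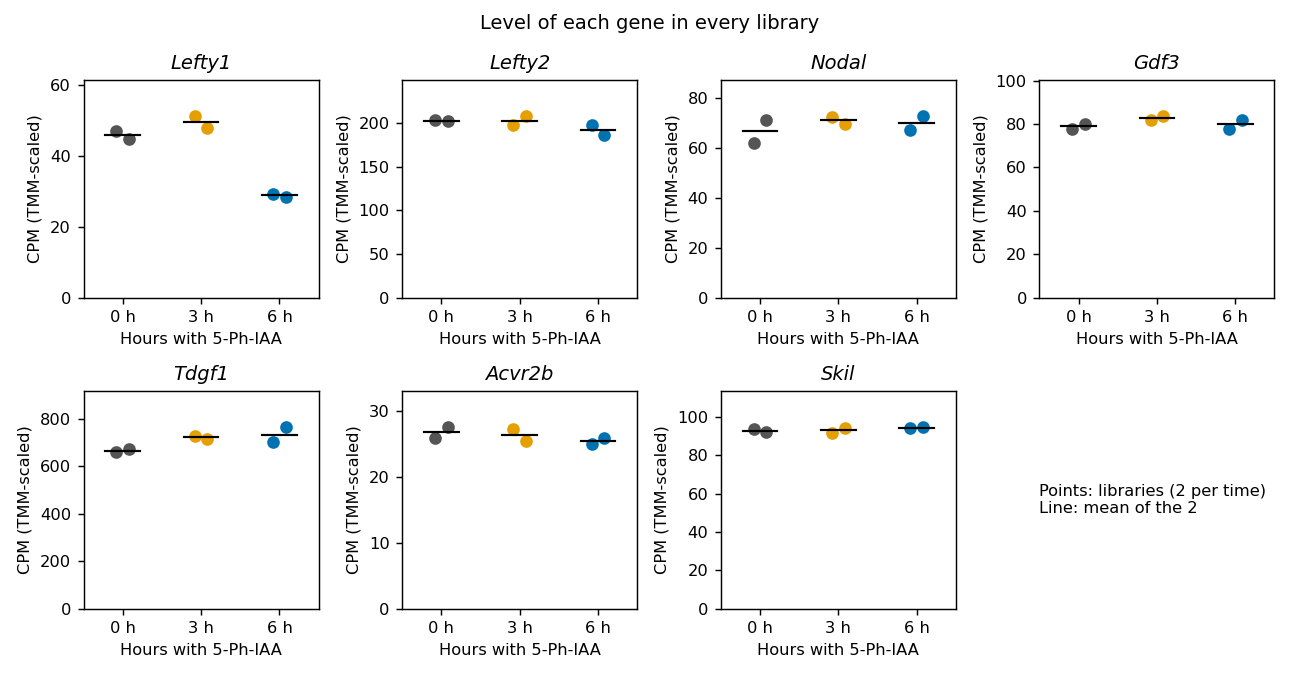
TMM-scaled CPM of each gene (y axis from 0) at 0, 3 and 6 h of 5-Ph-IAA, with 1 point for each library and a line at the mean of the 2. The 2 Lefty1 libraries at 6 h, at 29.3 and 28.4 CPM, lie below the 4 others, while the other panels show little separation between times.

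Lefty1 encodes a secreted inhibitor that binds Nodal and its co-receptors. Lefty1 (ENSMUSG00000038793) had 47.0 and 44.6 CPM at 0 h, 51.1 and 47.8 CPM at 3 h, and 29.3 and 28.4 CPM at 6 h, from 486 to 1080 counts. Both 6 h libraries were below all 4 earlier ones, and both 3 h libraries were slightly above both 0 h libraries. The mean was 28.9 ± 0.644 CPM at 6 h and 45.8 ± 1.74 CPM at 0 h (SD, n = 2 each). Lefty1 fell by 0.67 on the log2 scale at 6 h against 0 h (SE 0.06, 95% confidence interval -0.79 to -0.54, edgeR adjusted p = 7.02e-07), which leaves 0.63 of the 0 h level. At 6 h against 3 h it fell by 0.78 (SE 0.06, edgeR adjusted p = 1.57e-07). At 3 h against 0 h its log2 fold change was 0.11 with an interval of -0.0047 to 0.23 (edgeR adjusted p = 0.486). Among the 1940 genes that fell at 6 h against 0 h, 188 (9.69%) fell at least as much as Lefty1, and the median of the fallers was -0.24. Both Lefty1 calls held in each of 17 alternatives, with values of -0.7 to -0.62 at 6 h against 0 h and -0.84 to -0.72 at 6 h against 3 h. With the feeder marker level as a covariate, the 6 h against 0 h value was -0.66.

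Lefty2 encodes the second Lefty inhibitor, which in the mouse embryo marks the left lateral plate while Lefty1 marks the midline. Lefty2 (ENSMUSG00000066652) had 204 and 202 CPM at 0 h, 198 and 208 CPM at 3 h, and 198 and 187 CPM at 6 h. Both 6 h libraries lay below both 0 h libraries, by little, and the 3 h libraries spread over the 0 h values. The log2 fold change at 6 h against 0 h was -0.08 with an interval of -0.16 to 0.0039 (edgeR adjusted p = 0.165), so a decrease of up to 0.16 lies within the interval. For 6 h against 3 h it was -0.08 (edgeR adjusted p = 0.18), and with the feeder marker level as a covariate it was -0.14 (edgeR adjusted p = 0.0408).

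The split between the 2 Lefty mRNAs was also read within each library, where library scaling cancels. Lefty1 gave 12.9% (95% exact binomial interval 11.9 to 14.0) and 13.2% (12.2 to 14.3) of the summed Lefty counts at 6 h, against 18.7% (17.6 to 19.8) and 18.1% (17.1 to 19.1) at 0 h. At 3 h the shares were 20.5% (19.5 to 21.7) and 18.7% (17.7 to 19.8). Both 6 h shares lay below the 4 others, and the intervals cover counting error only. The log2 ratio of Lefty1 to Lefty2 differed by -0.59 at 6 h against 0 h and of -0.7 at 6 h against 3 h. An exact two-sided permutation test over the libraries gave p = 0.333 for both, which is the smallest value that 2 libraries against 2 allow, and p = 0.667 for the 0.11 at 3 h against 0 h. In the fit over all genes, the intervals for 6 h against 0 h did not overlap, with -0.79 to -0.54 for Lefty1 and -0.16 to 0.0039 for Lefty2. Both genes carry the same seed match, and any part of microRNAs in these values was not tested.

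**Figure D3:**
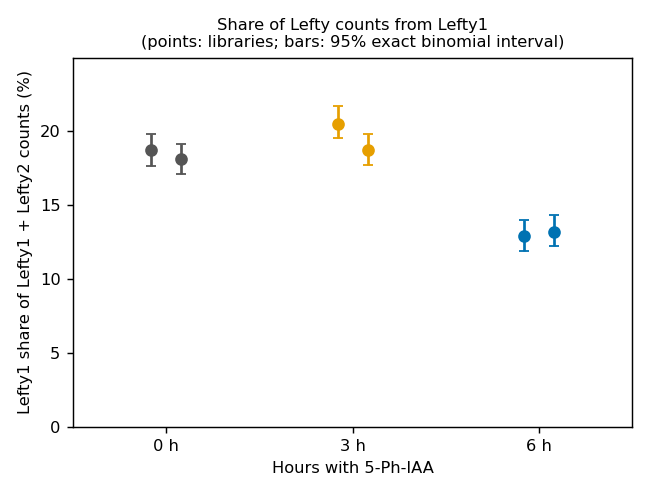
Share of Lefty1 in the summed Lefty1 and Lefty2 counts (%, axis from 0) at 0, 3 and 6 h of 5-Ph-IAA, with 1 point for each library and its 95% exact binomial interval. The 6 h libraries, at 12.9% and 13.2%, lie below the libraries of 0 h and 3 h, which lie between 18.1% and 20.5%.

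Nodal and Gdf3 are the ligands of the group, and Gdf3 is a relative of Nodal that acts through the same receptors in the early mouse embryo. Nodal (ENSMUSG00000037171) had 62.2 and 71.4 CPM at 0 h, 72.3 and 69.8 CPM at 3 h, and 67.4 and 72.8 CPM at 6 h. The 0 h libraries differed from each other by more than the means of the times did. Its log2 fold change was 0.07 at 6 h against 0 h, with an interval of -0.06 to 0.2 (edgeR adjusted p = 0.446), and 0.09 at 3 h against 0 h, with an interval of -0.04 to 0.21 (edgeR adjusted p = 0.631). Gdf3 (ENSMUSG00000030117) had 77.8 and 80.0 CPM at 0 h, 81.9 and 83.6 CPM at 3 h, and 77.8 and 82.0 CPM at 6 h. The 3 h libraries stood just above the 0 h libraries, and the 6 h libraries overlapped both. Its log2 fold change was 0.02 at 6 h against 0 h, with an interval of -0.08 to 0.11 (edgeR adjusted p = 0.805), and 0.07 at 3 h against 0 h (edgeR adjusted p = 0.617).

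Tdgf1, also called Cripto, encodes the membrane-anchored co-receptor that Nodal and Gdf3 need and that the Lefty proteins bind. Tdgf1 (ENSMUSG00000032494) had 660.0 and 674 CPM at 0 h, 729.6 and 716 CPM at 3 h, and 702 and 766 CPM at 6 h. All 4 libraries with the analog were above both 0 h libraries, and the 6 h libraries spanned the 3 h libraries. Tdgf1 rose at 6 h against 0 h by a log2 fold change of 0.14 (SE 0.04, 95% interval 0.06 to 0.22, edgeR adjusted p = 0.0123), a gain of 10.1%. The call did not hold without replicate 2 of 6 h, where the value was 0.08 (edgeR adjusted p = 0.109), nor with no filter on low counts (0.13, edgeR adjusted p = 0.125). At 3 h against 0 h the value was 0.12 (SE 0.04, edgeR adjusted p = 0.254), and the adjusted p was 0.0437 without replicate 1 of 6 h and 0.0453 without replicate 2 of 6 h, which enter that comparison only through the shared spread. Between 6 h and 3 h the value was 0.02 (edgeR adjusted p = 0.72). The feeder marker level as a covariate moved the 3 h against 0 h value to 0.01 (edgeR adjusted p = 0.96) and the 6 h against 3 h value to 0.11 (edgeR adjusted p = 0.016), and left 0.13 at 6 h against 0 h (edgeR adjusted p = 1.6e-05).

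Acvr2b encodes a type II activin receptor, the kinase that activates the type I receptor once a ligand is bound. Acvr2b (ENSMUSG00000061393) had 25.8 and 27.5 CPM at 0 h, 27.2 and 25.4 CPM at 3 h, and 25.0 and 25.9 CPM at 6 h, with overlap between all times. Its log2 fold change at 6 h against 0 h was -0.07, with an interval of -0.21 to 0.08 (edgeR adjusted p = 0.52). Skil, or SnoN, encodes a nuclear corepressor of SMAD complexes that is itself a target of the pathway. Skil (ENSMUSG00000027660) had 93.4 and 92.0 CPM at 0 h, 91.4 and 94.4 CPM at 3 h, and 94.3 and 94.6 CPM at 6 h. The 6 h libraries were above the 0 h libraries by a small margin, with a log2 fold change of 0.03 and an interval of -0.06 to 0.12 (edgeR adjusted p = 0.688).

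**Figure D4:**
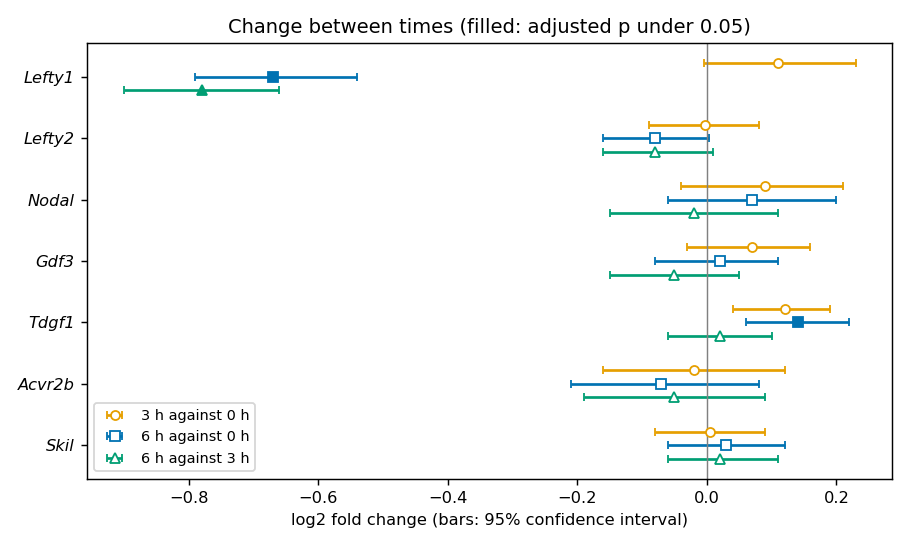
Log2 fold change of each gene (x axis) for 3 h against 0 h, 6 h against 0 h and 6 h against 3 h, with 95% confidence intervals and filled symbols for an adjusted p under 0.05. The filled symbols are Lefty1 at 6 h against 0 h (-0.67) and 6 h against 3 h (-0.78) and Tdgf1 at 6 h against 0 h (0.14).

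Genes with the seed match were counted alongside, as the wider group to which the Lefty genes belong. Of the 2499 tested genes with a match, 13.8% rose at 6 h against 0 h and 15.1% fell, and their median log2 change was 0.011. Of the 11152 genes with a 3′ UTR but no match, 10.3% rose and 13.1% fell, with a median of 0.001. The 2 sets were not matched for 3′ UTR length or for level, and the cause of their difference was not tested. In a list of 12 genes reported elsewhere as targets of these microRNAs, 9 held a match. Of the 12 at 6 h against 0 h, 1 rose (Irf2) and 3 fell (Lats2, Casp2 and Rela), and the median was -0.05. Of all tested genes, 22.3% were called in that comparison. Lats2, a kinase of the Hippo pathway, had 19.6 and 17.6 CPM at 6 h, against 25.0 and 23.4 CPM at 0 h, and fell by 0.38 (SE 0.08, edgeR adjusted p = 0.00182). Exons of the gene model Gm49361 on the same strand cover 42.4% of the Lats2 exons, so its counts are uncertain. Casp2 fell by 0.24 (edgeR adjusted p = 0.0212), but was not called in the fits that left out replicate 2 of 0 h (-0.13) or either replicate of 6 h (-0.23 in both), nor by DESeq2 (adjusted p = 0.142) or edgeR with no filter (adjusted p = 0.0986). Irf2 rose by 0.56 (edgeR adjusted p = 0.0468), but was not called in the fits that left out replicate 1 or 2 of 0 h (0.56 and 0.57) or replicate 1 of 6 h (0.36), nor by DESeq2 (adjusted p = 0.234), limma voom (adjusted p = 0.056) or edgeR with no filter (adjusted p = 0.135). Rela, which has no match, fell by 0.21 (edgeR adjusted p = 0.00785), and was not called without replicate 1 of 6 h (-0.19) or by DESeq2 (adjusted p = 0.0848).

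The other pathway genes were taken from lists of ligands and convertases, receptors, SMADs and their partners, inhibitors, target genes and the microRNA targets above. Of their 58 genes 51 were tested. Of the 51, 8 rose and 10 fell at 6 h against 0 h, or 35.3%, and at 6 h against 3 h, 9 rose and 5 fell, or 27.5%. None was called at 3 h against 0 h, and DESeq2 and limma voom also called none. Of the 51, 9 had an unadjusted p under 0.05 there in edgeR's test, beside 1679 of the 15748 genes tested. Over all 15748 tested genes, 1575 rose and 1940 fell at 6 h against 0 h (22.3%), and 1558 rose and 1856 fell at 6 h against 3 h (21.7%). Smad3, which carries the signal to the nucleus, had 32.5 and 36.8 CPM at 6 h, against 25.5 and 25.1 CPM at 0 h, a log2 fold change of 0.45 (SE 0.07, edgeR adjusted p = 0.000153). Zfyve9, or SARA, which brings SMADs to the receptor, had 38.8 and 39.6 CPM at 6 h, against 28.1 and 27.9 CPM at 0 h, and rose by 0.49 (SE 0.06, edgeR adjusted p = 1.61e-05). Exons of 3110021N24Rik on the other strand cover 10.9% of the Zfyve9 exons, and whether strand was used in counting is not given. Acvr1b, the type I receptor ALK4, had 40.6 and 43.5 CPM at 6 h, against 35.1 and 33.7 CPM at 0 h, and rose by 0.29 (SE 0.06, edgeR adjusted p = 0.00176). These were 2 of 8 SMADs and partners and 1 of 2 tested receptors, while Smad4, at 82.1 and 88.4 CPM at 6 h and 78.4 and 84.0 CPM at 0 h, and Acvr2a, at 26.2 and 25.7 CPM at 6 h and 24.4 and 24.7 CPM at 0 h, were not called.

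Among 16 tested inhibitors at 6 h against 0 h, 2 rose and 4 fell, with a median of -0.03. In that comparison 22.3% of all tested genes were called. Dact2, which in zebrafish promotes degradation of Nodal receptors, had 29.2 and 31.2 CPM at 6 h, against 42.0 and 42.7 CPM at 0 h, and fell by 0.48 (SE 0.06, edgeR adjusted p = 1.92e-05). Smad7, an inhibitory SMAD, had 120.5 and 125 CPM at 6 h, against 137 and 142 CPM at 0 h, and fell by 0.18 (SE 0.04, edgeR adjusted p = 0.00314). Nomo1, part of a membrane complex that restrains Nodal in zebrafish, fell by 0.15 (edgeR adjusted p = 0.00453), and its -0.12 without replicate 1 of 0 h was not called. Pmepa1, a membrane protein that sequesters SMADs, fell by 0.15 (edgeR adjusted p = 0.0429), but was not called in the fits that left out replicate 1 of 0 h or replicate 2 of 6 h (-0.08 in both) or either replicate of 3 h (-0.14 in both), and lost its call in 9 of 17 alternatives, DESeq2 (adjusted p = 0.113), other scalings, no filter and the 4-library fit among them. Bambi, a pseudoreceptor, rose by 0.35 (edgeR adjusted p = 0.0419). It was not called in the fits that left out replicate 2 of 0 h (0.22) or the replicates of 6 h (0.3 and 0.41), nor by DESeq2 (adjusted p = 0.226), edgeR with no filter (adjusted p = 0.136) or the 4-library fit (adjusted p = 0.054). Inha, the inhibin alpha subunit, at 1.81 and 1.45 CPM at 6 h and 0.985 and 0.788 CPM at 0 h, rose by 0.87 (edgeR adjusted p = 0.0428) and was not called when any 1 of the 6 libraries was left out, with values between 0.71 and 1.04, or with no filter (adjusted p = 0.097).

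Of 5 tested ligands and convertases at 6 h against 0 h, 1 rose and 1 fell, where 22.3% of all tested genes were called. Inhba, the activin A subunit, had 415 and 373 CPM at 6 h, against 507 and 458 CPM at 0 h, and fell by 0.29 (SE 0.05, edgeR adjusted p = 0.000366). Inhbb, the activin B subunit, rose by 0.2 (edgeR adjusted p = 0.0378), but was not called in the fits that left out replicate 2 of 0 h (0.14) or replicate 2 of 6 h (0.13), nor by DESeq2 (adjusted p = 0.19) or edgeR with no filter (adjusted p = 0.186). Of 8 tested target genes, 1 rose and 2 fell, beside the same 22.3% of all tested genes. Eomes, a T-box factor of mesendoderm, had 32.0 and 31.8 CPM at 6 h, against 26.6 and 23.6 CPM at 0 h, and rose by 0.35 (SE 0.07, edgeR adjusted p = 0.0016). T, or Brachyury, had 3.44 and 2.95 CPM at 6 h, against 5.39 and 4.54 CPM at 0 h, and fell by 0.64 (edgeR adjusted p = 0.0164), but was not called in the fits that left out replicate 1 of 0 h (-0.51) or replicate 2 of 6 h (-0.52), nor by DESeq2 (adjusted p = 0.12) or edgeR with no filter (adjusted p = 0.0595). With the feeder marker level as a covariate, Inhba had -0.27 at 6 h against 0 h (edgeR adjusted p = 2.05e-13). For Inhba the covariate moved the 3 h against 0 h value to -0.05 where it was -0.23 without it, neither of them called, and the 6 h against 3 h value to -0.22 (edgeR adjusted p = 9.15e-06) where it was -0.07 without it. Cer1 and Gdf1 were listed at 0 in every library, where all Gdf1 exons lie within Cers1 on the same strand, and Acvr1c, Cfc1, Foxa2, Lhx1 and Sox17 had at most 4 counts.

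**Figure D5:**
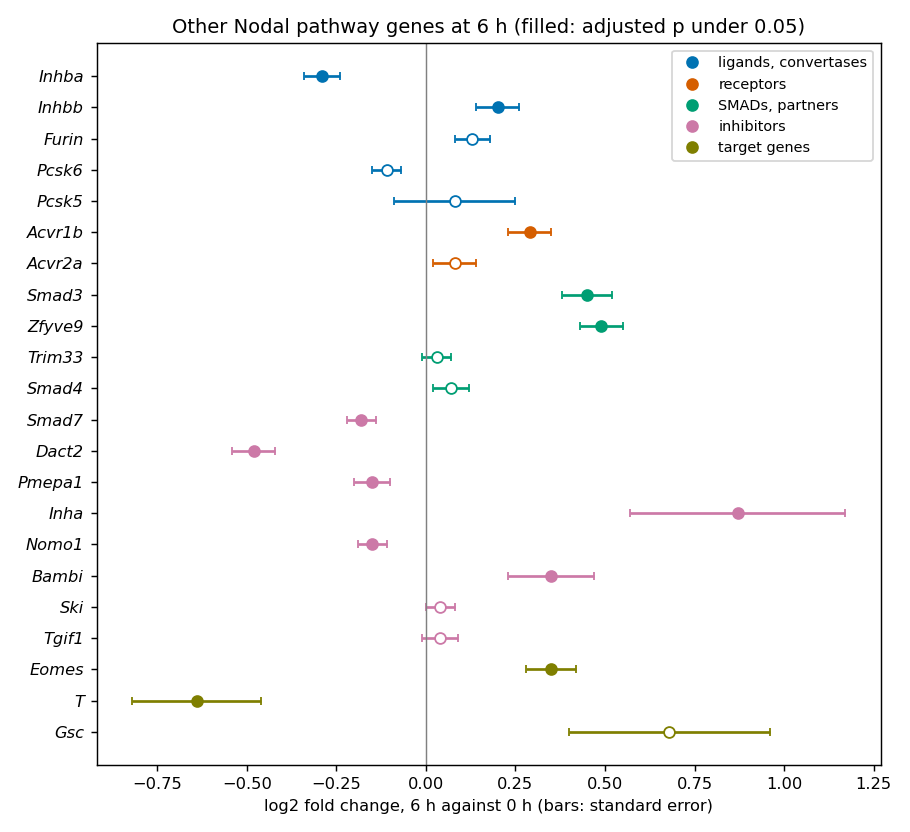
Log2 fold change at 6 h against 0 h (x axis, with standard errors) of the named ligands and convertases, receptors, SMADs, inhibitors and target genes, with filled points for an adjusted p under 0.05. Zfyve9 (0.49) and Smad3 (0.45) lie to the right and Dact2 (-0.48) to the left, while the wide bars of Inha, T and Gsc belong to genes of low level.

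The genes whose pattern over the 6 libraries was most like that of Lefty1 were Zbtb2, Slc25a44 and Usp38, with Pearson r of log2 CPM of 0.995, 0.994 and 0.993 among 1906 candidates. Zbtb2, a zinc finger protein, had 35.4 and 33.4 CPM at 0 h, 36.1 and 35.1 CPM at 3 h, and 25.2 and 25.7 CPM at 6 h. For Tdgf1 they were Fcho2, Mphosph8 and Lsm14b, with r of 0.99, 0.989 and 0.985 among 10654 candidates. These values describe the same 6 libraries, which share their scaling, and the highest of many candidates is high by selection.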

How the data were processed

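PolyA RNA was sequenced from 6 libraries, 2 at each of 3 times. The authors deposited raw read counts for each Ensembl gene, with no normalization. Tools in the submitters' processing notes are featureCounts 2.0.3, HISAT2 2.2.1 and fastp 0.22.0, on GRCm38 (mm10). Whether strand was used, which annotation release, and how multi-mapping reads were counted is not given in the sources used here. Gene names, exons and 3′ UTRs came from GENCODE M21 on the same build, which named 55227 of the IDs.

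Everything else was computed here from the deposited counts with edgeR 4.0.16 in R 4.3.3, beside DESeq2 1.42.0 and limma 3.58.1 as alternatives. filterByExpr (minimum count 10) kept 15748 genes and 99.9% of the counts. edgeR's quasi-likelihood test was run with TMM factors on the 6 libraries together, with a mean for each of 3 groups and Benjamini-Hochberg adjustment over all tested genes, two-sided, at a threshold of 0.05. edgeR's legacy estimator was run first and called 29, 3503 and 3375 genes at 3 h against 0 h, 6 h against 0 h and 6 h against 3 h. The current estimator, which called 22, 3515 and 3414, was made the basis of the report after those counts were seen, and the legacy one was kept as an added alternative. Standard errors come from each log2 fold change and its F statistic. TMM factors also scale CPM. TPM uses the union of annotated exons as length. The scripts were tested on simulated data.

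The genes and lists were chosen with earlier results of these data known. Named genes were the 7 genes, every called gene of the pathway lists, up to 2 more of each list by mean CPM, the 2 highest markers of each marker list, and the 3 genes most like each called gene by Pearson r (log2 CPM, prior count 2). Some genes that this rule named are not reported here, though counts over lists include them. Separate cultures are not stated in the labels, and p-values then measure only the spread between these samples, which may be technical. The alternatives were RLE, upper-quartile and no scaling factors, 2 other filters, DESeq2, limma voom, 4-library fits, a replicate block, a feeder marker covariate and leaving out each library.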

Additional observations from a re-analysis of the deposited data

Results flagged for a closer look

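For 15 genes, Lefty1 and 14 of the pathway lists, the change at 6 h differed from the change at 3 h, by edgeR's test of 6 h against 3 h, which is the test of that difference because both times share the 0 h libraries. They were 1 of the 7 genes (14.3%) and 14 of 51 tested pathway list genes (27.5%). Over all 15748 tested genes, 3414 (21.7%) were called in that test, so such differences were common. The difference (6 h effect minus 3 h effect, log2) was -0.78 for Lefty1 (edgeR adjusted p = 1.57e-07). Among pathway genes it was 0.55 for Smad3, 0.34 for Zfyve9, 0.29 for Acvr1b, 0.35 for Eomes and -0.47 for Dact2, each called in all 17 alternatives.

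The other 9 differences were lost when a library was left out. Inhbb had 0.28, with 0.23 without replicate 1 of 3 h and 0.21 without replicate 2 of 6 h. Furin, a convertase, had 0.14, with 0.09 without replicate 2 of 3 h and 0.12 without replicate 1 of 6 h. Pcsk6, another convertase of Nodal, had -0.21, with -0.17 without replicate 1 of 3 h. Smad7 had -0.17, with -0.15 without replicate 1 of 3 h and -0.13 without replicate 1 of 6 h. Inha had 1.35, with 1.1 without replicate 2 of 3 h and 1.2 without replicate 1 of 6 h. Nomo1 had -0.12, with -0.11 and -0.12 without replicate 1 and replicate 2 of 3 h and -0.09 without replicate 2 of 6 h. Rbl2, whose exons are covered to 21% by genes on the other strand, had 0.36, with 0.3 without replicate 1 of 3 h and 0.29 without replicate 2 of 6 h. Irf2 had 0.81, with 0.64 without replicate 1 of 3 h and 0.61 without replicate 1 of 6 h. Rela had -0.23, with -0.18 without replicate 1 of 3 h. With the feeder marker level as a covariate, the calls were also lost for Furin (0.11, edgeR adjusted p = 0.216), Smad7 (-0.12, edgeR adjusted p = 0.131), Inha (1.04, edgeR adjusted p = 0.145) and Irf2 (0.53, edgeR adjusted p = 0.214), in a comparison where 9 of 30 feeder markers rose. DESeq2 did not call Furin (adjusted p = 0.166), Nomo1 (adjusted p = 0.0738), Rbl2 (adjusted p = 0.0799), Irf2 (adjusted p = 0.0583) or Rela (adjusted p = 0.0539). With no filter on low counts, Inhbb (edgeR adjusted p = 0.072), Furin (0.164), Nomo1 (0.0553) and Rbl2 (0.0562) were not called, and Nomo1 was not called with upper-quartile factors (0.0968) or total counts (0.0997). With 2 libraries in each group, no test for a single distant library could be made.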

How the results depend on the processing

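Of 34 called values of named genes, 15 were called under every alternative, both Lefty1 values among them. Of 108 log2 fold changes tried, 39 changed sign under at least 1 alternative, and none of these 39 was called. For Tdgf1 at 6 h against 0 h, no filter gave 0.13 (not called). With the feeder marker covariate at 6 h against 3 h, Lefty2 had -0.14, Tdgf1 0.11, Inhba -0.22, Pmepa1 -0.2 and Lats2 -0.31, all called there and not without it, and at 3 h against 0 h Tdgf1 had 0.01. The causes of the changes given here were not tested.

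The feeder marker covariate turned the sign at 3 h against 0 h for Nodal (-0.08), Lefty2 (0.06), Gdf3 (-0.0024), Furin (0.02), Pcsk5 (0.14), Acvr1b (-0.05), Smad4 (-0.02), Pmepa1 (0.07), Nomo1 (0.03), Tgif1 (-0.07), Eomes (0.08), Irf2 (0.06) and Rela (-0.0024), and at 6 h against 3 h for Nodal (0.13), Acvr2b (0.02), Gdf3 (0.01), Pcsk5 (-0.03), Trim33 (0.03), Smad4 (0.07), Tgif1 (0.09) and Ei24 (0.01). Upper-quartile factors did so for Skil (-0.0002) and Acvr1b (-0.0034) at 3 h against 0 h, for Nodal (0.02), Trim33 (0.03), Smad4 (0.0015) and Tgif1 (0.02) at 6 h against 3 h and for Cdkn1a (0.02) at 6 h against 0 h. Total counts with no scaling factor gave Nodal 0.02, Trim33 0.03, Smad4 0.0017 and Tgif1 0.02 at 6 h against 3 h and Cdkn1a 0.03 at 6 h against 0 h. No filter gave Lefty2 0.0013 and Eomes 0.0026 at 3 h against 0 h and Acvr2a -0.0013 at 6 h against 3 h, and limma voom gave Eomes 0.0026 at 3 h against 0 h.

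Leaving out each library in turn gave, at 3 h against 0 h, ranges of -0.0012 to 0.19 for Nodal, -0.04 to 0.03 for Lefty2, 0.1 to 0.13 for Tdgf1, -0.07 to 0.03 for Acvr2b, -0.02 to 0.03 for Skil, -0.07 to 0.04 for Furin, -0.25 to 0.07 for Pcsk5, -0.03 to 0.03 for Acvr1b, -0.01 to 0.09 for Trim33, -0.03 to 0.01 for Smad7, -0.06 to 0.02 for Dact2, -0.07 to 0.01 for Nomo1, -0.01 to 0.03 for Ski, -0.09 to 0.09 for Eomes, -0.28 to 0.43 for Gsc, -0.14 to 0.05 for Casp2 and -0.02 to 0.06 for Rela. At 6 h against 0 h the ranges were -0.02 to 0.18 for Nodal, 0.08 to 0.21 for Tdgf1, -0.02 to 0.06 for Gdf3, -0.07 to 0.24 for Pcsk5, -0.01 to 0.1 for Tgif1 and -0.03 to 0.02 for Cdkn1a. At 6 h against 3 h they were -0.07 to 0.04 for Nodal, -0.04 to 0.09 for Tdgf1, -0.09 to 0.01 for Acvr2b, -0.14 to 0.01 for Inhba, -0.0028 to 0.03 for Acvr2a, -0.05 to 0.05 for Trim33, -0.09 to 0.03 for Smad4, -0.12 to 0.01 for Pmepa1, -0.07 to 0.04 for Tgif1, -0.26 to 0.07 for T and -0.07 to 0.01 for Ei24.

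The count of called genes at 3 h against 0 h, 22, became 0 with no filter, 12 with DESeq2, 49 with the feeder marker covariate, 74 in the 4-library fit and 4 to 249 with a library left out (lowest without replicate 1 of 3 h, highest without replicate 2 of 0 h). The count of 3515 at 6 h against 0 h became 2029 with no filter and 1697 with DESeq2. The count of 3414 at 6 h against 3 h became 1725 with no filter, 1438 with DESeq2, 2152 with the covariate and 1514 to 3706 with a library left out (lowest without replicate 2 of 3 h). Pathway list genes called were 2 in the 4-library fit and 0 to 3 with a library left out at 3 h against 0 h, 10 with no filter and 9 with DESeq2 at 6 h against 0 h, and 8 with DESeq2 and 8 to 15 with a library left out at 6 h against 3 h. The labels state no pairing by replicate number. Over all tested genes, same-numbered libraries deviated together with r of 0.037, 0.04 and -0.021. Counting noise in single genes lowers such values, so they cannot decide whether the libraries are paired. The summed feeder markers were higher in replicate 1 than in replicate 2 at each time. A replicate block gave 242, 4227 and 4186 called genes in the 3 comparisons in order and 3 pathway list genes at 3 h against 0 h, and Lefty1 kept -0.67 at 6 h against 0 h. With the longest transcript as length the order of the 7 mean levels was the same, with 90.2 TPM for Nodal, 219.6 for Lefty2 and 103 for Gdf3. The ranges of Lefty1 and Nodal then overlapped, and those of Gdf3 and Nodal did not, the reverse of the main length. The seed matches did not change when all annotated 3′ UTRs were searched.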
